A study of Homo sapiens with 4 samples.

Results

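The genes described here encode nucleoporins, the subunits of the nuclear pore complex, together with the soluble receptors and the Ran cycle proteins that carry cargo through it. They were chosen by symbol. Protein-coding rows of the deposited count table were taken where the symbol was NUP, IPO, KPNA or KPNB followed by a number, or belonged to the numbered XPO and TNPO genes, together with XPOT, CSE1L, RAN, RANBP1, RANGAP1, NDC1 and TPR. This rule took 51 of 64252 rows and used no measured value. Their levels were read from 4 RNA-seq libraries of SK-N-BE(2), a human neuroblastoma line. In 2 libraries the cells had received a hairpin that targets IGF2BP3 (shIGF2BP3), and in the other 2 a control hairpin that the design text calls sh-NC (shControl). IGF2BP3 binds mRNA and recognises its m6A methyl mark, and the title of the series concerns the stability of E2F2 mRNA. No time after transfection, number of hairpin sequences or selection step is given in the labels, and RNA levels alone were measured. Whether replicates are separate cultures is not stated, so the p-values reflect only how far these particular libraries vary, and that variation could be technical.

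The nuclear pore complex is a ring of nucleoporins set in the nuclear envelope. Its Y complex and inner ring form the scaffold, a few membrane proteins anchor it, and nucleoporins with phenylalanine-glycine repeats fill the channel through which receptors pass. Importins bind cargo in the cytoplasm and release it where Ran is loaded with GTP, exportins bind cargo together with Ran-GTP and release it when RANGAP1 and RANBP1 promote GTP hydrolysis in the cytoplasm, and importin alpha adaptors are returned to the cytoplasm by CSE1L. Cells that divide build new pores in interphase and disassemble and rebuild them around mitosis.

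Sequencing depth was 27537200 and 26755695 counts for shIGF2BP3 cells, against 27977019 and 31946756 counts for shControl cells. IGF2BP3 itself had 813 and 875 counts in shIGF2BP3 cells, against 4215 and 4347 counts in shControl cells (log2 -2.28, SE 0.0923, adjusted p = 1.66e-12 by edgeR's quasi-likelihood test). Levels are CPM, counts relative to the TMM-scaled library total, and fold changes are log2 of shIGF2BP3 over shControl. Adjusted p-values (Benjamini-Hochberg, threshold 0.05) come from edgeR's quasi-likelihood test over all 19767 genes tested. Adrenergic neuroblastoma markers were present, with summed levels of 7795 and 7436 CPM in shIGF2BP3 cells, against 9863 and 10020 CPM in shControl cells. Over all genes tested, 51.5% passed the test in either direction, and markers of other cell types are read beside that share. Of 6 tested Schwann cell and glial markers, 2 were higher and 1 lower, and the summed level was 81.9 and 73.4 CPM in shIGF2BP3 cells, against 16.1 and 16.3 CPM in shControl cells, with SOX10 at 0 counts in every library. Of 8 tested fibroblast markers, 4 were higher and 1 lower, with sums of 1053 and 1037 CPM in shIGF2BP3 cells, against 831 and 865 CPM in shControl cells and FAP at 0. Summed leukocyte markers reached at most 6.07 CPM in shIGF2BP3 cells and 3.19 CPM in shControl cells, with CD3E and LYZ at 0, and summed epithelial markers at most 8.58 CPM in shIGF2BP3 cells and 14.9 CPM in shControl cells. All 16 proliferation genes examined fell (median log2 -1.79), with summed levels of 1187 and 1171 CPM in shIGF2BP3 cells, against 3965 and 3823 CPM in shControl cells. The part of these differences in the results that follow was not tested.

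Most genes of the transport machinery were lower in shIGF2BP3 cells. Of the 51 rows, 50 had enough counts to be tested. KPNA7, an importin alpha known from oocytes and embryos, had 0 counts in all 4 libraries, which allows at most 3 counts in a library, or 0.0958 to 0.111 CPM. Among the 50, 36 fell, 4 rose and 10 did not pass the test. Over all genes tested, 25.6% fell and 25.9% rose. Over protein-coding genes whose log2 CPM averaged at least 4, a class that holds all 50 genes and was set after their values were seen, 38.0% fell and 32.2% rose, 70.2% in either direction, against 51.5% of all genes tested. The median log2 fold change was -0.47 over the 50 genes, 0.01 over all genes tested and -0.05 over the abundant protein-coding genes. Levels in the pairs of libraries did not overlap for 46 of the 50, with 38 lower and 8 higher in shIGF2BP3 cells. Over all genes tested 36.7% were lower and 37.8% higher without overlap, and over the abundant protein-coding genes 45.7% were lower and 39.6% higher. At least 2-fold lower and past the test were 9 genes (IPO5, RANGAP1, RANBP1, NUP210, NDC1, RAN, NUP62, NUP93 and KPNA3), and no gene was 2-fold higher, against 9.16% lower and 10.4% higher by that rule over all genes tested and 8.95% lower and 6.28% higher over the abundant protein-coding genes. The summed level of all 51 rows was 7211 and 7550 CPM in shIGF2BP3 cells, against 9879 and 9522 CPM in shControl cells, a ratio of 0.761. In RNA from a whole culture, fewer cells that express a gene and less RNA of it per cell cannot be told apart.

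**Figure D1:**
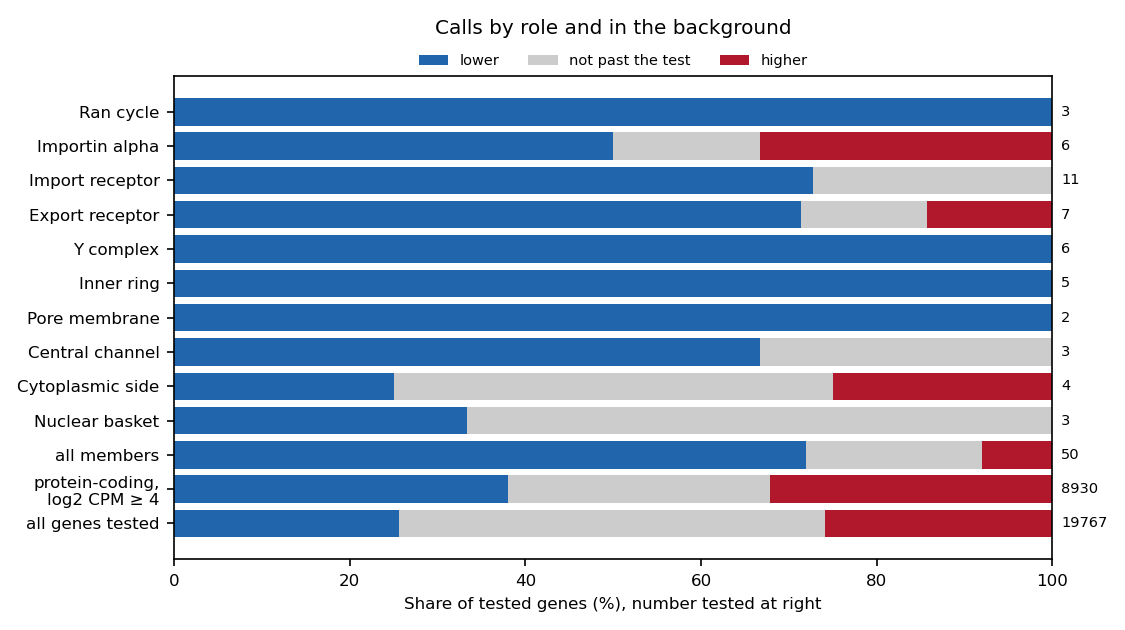
Share of tested genes, in percent on the horizontal axis, that were lower in shIGF2BP3 cells (blue), not past edgeR's quasi-likelihood test (grey) or higher (red), for each role, for all 50 genes, for abundant protein-coding genes and for all genes tested, with the number tested at the right. All 13 tested genes that the symbol rule takes from the Y complex, inner ring and pore membrane were lower, while importin alpha and the cytoplasmic side held genes in both directions.

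The genes are spread over 18 chromosomes, and their proximal promoters were searched for sequence words they share. RefSeq promoter windows on GRCh38.p14 were available for 44 of the 50 tested genes and for 11315 tested protein-coding genes, and the 250 bases before the annotated transcription start were searched on both strands. The word TTTGAA, the core of the cell cycle genes homology region (CHR) that is known from promoters of mitotic genes, was found in 10 of the 44 windows (22.7%), against 8.55% of all windows. The 10 genes were KPNA2, RANGAP1, NUP37, NUP205, NUP35, NUP153, NUP98, NDC1, IPO11 and IPO7. Of the 32 genes that fell and had a window, 9 held the word, as did none of the 3 that rose and 1 of the 9 that did not pass the test. The median log2 fold change was -0.82 for the 10 genes with the word and -0.41 for those without, while over all windows it was -0.02 with the word and -0.01 without. CCAAT was found in 20 windows (45.5%, against 34.8% of all), the E-box word CACGTG in 7 (15.9%, against 8.79%) and an E2F word (TTTCCCGC, TTTCGCGC, TTTGCCGC or TTTGGCGC) in 1 (2.27%, against 4.33%). No word contains another, and a match describes the letters in a window only. The words were chosen with results of these libraries known.

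Below are 6 of these windows, 5′ to 3′ on the strand of the gene, with every match to the searched words, in either orientation, in capitals. KPNA2, RANGAP1, NUP37 and NUP205 show the CHR word in an adaptor, a Ran regulator and scaffold subunits that fell, RAN shows an E-box word, and XPOT, which rose, holds none of the words. The windows are chr17:68035485-68035734 (plus strand) for KPNA2, chr22:41286188-41286437 (minus strand) for RANGAP1, chr12:102120115-102120364 (minus strand) for NUP37, chr7:135557667-135557916 (plus strand) for NUP205, chr12:130871816-130872065 (plus strand) for RAN and chr12:64404142-64404391 (plus strand) for XPOT.
KPNA2: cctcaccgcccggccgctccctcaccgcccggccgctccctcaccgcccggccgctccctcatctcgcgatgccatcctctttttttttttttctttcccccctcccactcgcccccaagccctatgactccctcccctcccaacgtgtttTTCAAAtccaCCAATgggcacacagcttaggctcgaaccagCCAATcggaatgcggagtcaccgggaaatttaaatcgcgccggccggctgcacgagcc
RANGAP1: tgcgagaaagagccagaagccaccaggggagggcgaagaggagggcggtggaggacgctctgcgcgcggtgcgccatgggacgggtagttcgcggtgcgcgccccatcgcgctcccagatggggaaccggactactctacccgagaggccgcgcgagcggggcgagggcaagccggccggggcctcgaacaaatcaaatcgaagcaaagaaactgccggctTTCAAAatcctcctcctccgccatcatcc
NUP37: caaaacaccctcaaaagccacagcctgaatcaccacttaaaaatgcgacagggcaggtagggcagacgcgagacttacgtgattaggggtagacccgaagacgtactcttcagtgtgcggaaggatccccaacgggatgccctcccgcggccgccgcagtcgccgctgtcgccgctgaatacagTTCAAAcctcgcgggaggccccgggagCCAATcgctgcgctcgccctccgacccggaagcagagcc
NUP205: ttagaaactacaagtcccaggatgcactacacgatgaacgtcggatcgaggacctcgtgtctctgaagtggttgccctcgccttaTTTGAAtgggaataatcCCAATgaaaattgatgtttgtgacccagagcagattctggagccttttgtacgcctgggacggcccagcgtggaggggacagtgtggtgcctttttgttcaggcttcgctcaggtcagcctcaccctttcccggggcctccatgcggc
RAN: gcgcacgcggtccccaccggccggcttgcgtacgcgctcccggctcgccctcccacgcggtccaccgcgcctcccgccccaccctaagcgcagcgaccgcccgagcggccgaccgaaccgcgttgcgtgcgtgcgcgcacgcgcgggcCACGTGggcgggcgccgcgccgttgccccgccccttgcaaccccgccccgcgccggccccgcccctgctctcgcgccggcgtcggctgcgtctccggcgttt
XPOT: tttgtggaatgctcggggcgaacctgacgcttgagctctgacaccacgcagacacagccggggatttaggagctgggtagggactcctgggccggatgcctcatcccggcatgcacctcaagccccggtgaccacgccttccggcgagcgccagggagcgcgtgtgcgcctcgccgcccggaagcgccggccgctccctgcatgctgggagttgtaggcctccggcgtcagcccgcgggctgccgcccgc
In KPNA2 the CHR word begins 99 bases before the transcription start, and CCAAT boxes begin 89 and 58 bases before it. The CHR word begins 29 bases before the start in RANGAP1, 66 bases before it in NUP37 and 165 bases before it in NUP205, and the E-box word of RAN begins 102 bases before it. Starts are those of RefSeq. In GENCODE 29 the gene begins inside the window for KPNA2, RANGAP1, NUP37, RAN and XPOT, and the words shown for KPNA2, RANGAP1 and RAN lie after that start, within the annotated gene.

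The Ran cycle had the largest fall of the 10 roles by median, with all 3 genes lower (median log2 -1.52). RAN (ENSG00000132341, chr12:130871879-130877678 on GRCh38, plus strand), the small GTPase that gives transport its direction, had 288 and 295 CPM in shIGF2BP3 cells, against 686 and 619 CPM in shControl cells. Its groups did not overlap, and the level was 2.24-fold lower (log2 -1.16, SE 0.0661, adjusted p = 1.13e-10). RANBP1, which helps RANGAP1 to strip Ran-GTP from exportins, had 72.4 and 67.3 CPM in shIGF2BP3 cells, against 207 and 195 CPM in shControl cells, again with no overlap (log2 -1.52, SE 0.0752, adjusted p = 1.81e-11). RANGAP1, the GTPase-activating protein of Ran, had 64.8 and 69.2 CPM in shIGF2BP3 cells, against 195 and 231 CPM in shControl cells. Both shIGF2BP3 libraries lay far below both shControl libraries, a 3.19-fold fall (log2 -1.67, SE 0.0866, adjusted p = 6.8e-11). The summed level of the 3 genes was 425 and 432 CPM in shIGF2BP3 cells, against 1089 and 1045 CPM in shControl cells, a ratio of 0.402. The genes did not fall in equal measure. RANGAP1 counts per RAN count were 0.225 and 0.234 in shIGF2BP3 cells, against 0.284 and 0.374 in shControl cells, and RANBP1 per RAN was 0.251 and 0.228 in shIGF2BP3 cells, against 0.302 and 0.315 in shControl cells. RCC1, the chromatin-bound exchange factor that loads Ran with GTP and that the symbol rule leaves out, had 26.6 and 27.2 CPM in shIGF2BP3 cells, against 65.1 and 59.1 CPM in shControl cells (log2 -1.20, SE 0.0986, adjusted p = 1.32e-08), and was named after its values were seen.

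**Figure D2:**
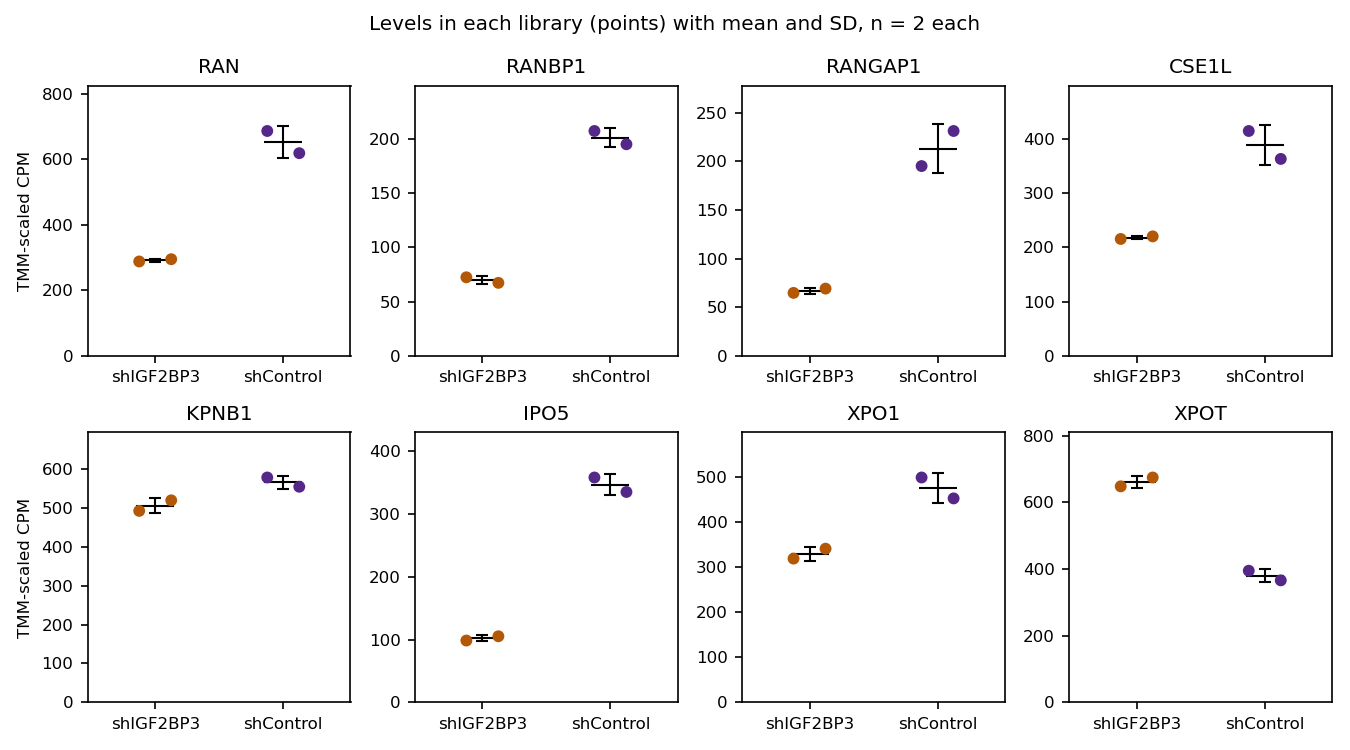
Level of 8 transport genes in TMM-scaled CPM, 1 panel per gene with its own axis that starts at 0, with a point for each library and a black mark for the mean with its SD (n = 2 each), shIGF2BP3 left of shControl. RAN, RANBP1, RANGAP1 and IPO5 lay lower in both shIGF2BP3 libraries than in either shControl library, and XPOT lay higher.

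The importin alpha adaptors, which bind the classical nuclear localisation signal and hand the cargo to KPNB1, moved in both directions, with 3 lower, 2 higher and 1 not past the test. KPNA2, the most abundant of them and known as high in dividing cells, had 217 and 217 CPM in shIGF2BP3 cells, against 428 and 387 CPM in shControl cells. The shIGF2BP3 libraries were nearly equal and both lay below the shControl libraries (log2 -0.91, SE 0.0671, adjusted p = 3.58e-09). KPNA3 had 38.2 and 37.3 CPM in shIGF2BP3 cells, against 80.1 and 73.2 CPM in shControl cells, a fall with no overlap (log2 -1.02, SE 0.0901, adjusted p = 3.54e-08). Its close paralog KPNA4 had 96.2 and 109.9 CPM in shIGF2BP3 cells, against 88.9 and 90.8 CPM in shControl cells. The KPNA4 libraries did not overlap, but the difference did not pass the test (log2 0.20, SE 0.081, adjusted p = 0.0516). It passed without replicate 1 of shIGF2BP3 (log2 0.29, adjusted p = 0.0162) and when libraries were scaled by their totals alone (log2 0.28, adjusted p = 0.00975). KPNA3 counts per KPNA4 count were 0.397 and 0.340 in shIGF2BP3 cells, against 0.901 and 0.806 in shControl cells.

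KPNA1, KPNA5 and KPNA6 form the third paralog group. KPNA6 had 94.1 and 94.4 CPM in shIGF2BP3 cells, against 123 and 137 CPM in shControl cells, which was a fall (log2 -0.47, SE 0.0763, adjusted p = 5.62e-05). The other two members of that group rose. KPNA1 had 109 and 121 CPM in shIGF2BP3 cells, against 96.2 and 85.1 CPM in shControl cells (log2 0.34, SE 0.0825, adjusted p = 0.00194), and 16.3% of its exon bases are shared with a gene on the opposite strand. KPNA5 had 53.1 and 58.5 CPM in shIGF2BP3 cells, against 41.6 and 37.2 CPM in shControl cells, also with no overlap (log2 0.50, SE 0.0972, adjusted p = 0.000289). KPNA6 counts per KPNA1 count were 0.861 and 0.782 in shIGF2BP3 cells, against 1.28 and 1.61 in shControl cells.

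Scaled by exon length, the importin alpha pool was made up differently in the groups. KPNA2 held 57.9% ± 1.07 of the pool in shIGF2BP3 cells and 69.0% ± 1.19 in shControl cells (SD, n = 2 each). KPNA3 held 7.05% ± 0.243 in shIGF2BP3 cells and 9.11% ± 0.0951 in shControl cells. The shares of KPNA1, KPNA4 and KPNA5 were larger in shIGF2BP3 cells. KPNA1 held 11.4% ± 0.587 in shIGF2BP3 cells and 5.70% ± 0.189 in shControl cells, KPNA4 9.14% ± 0.694 in shIGF2BP3 cells and 5.09% ± 0.348 in shControl cells, and KPNA5 4.08% ± 0.206 in shIGF2BP3 cells and 1.83% ± 0.0451 in shControl cells. KPNA6 held 10.5% ± 0.174 in shIGF2BP3 cells and 9.28% ± 1.17 in shControl cells, a difference that turned round when counts were not scaled by length. Shares sum to a whole, so a smaller KPNA2 share raises the others. With 2 libraries against 2, the smallest two-sided exact permutation p is 0.333, so no share could pass that test. The shares were not tested in another way.

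**Figure D3:**
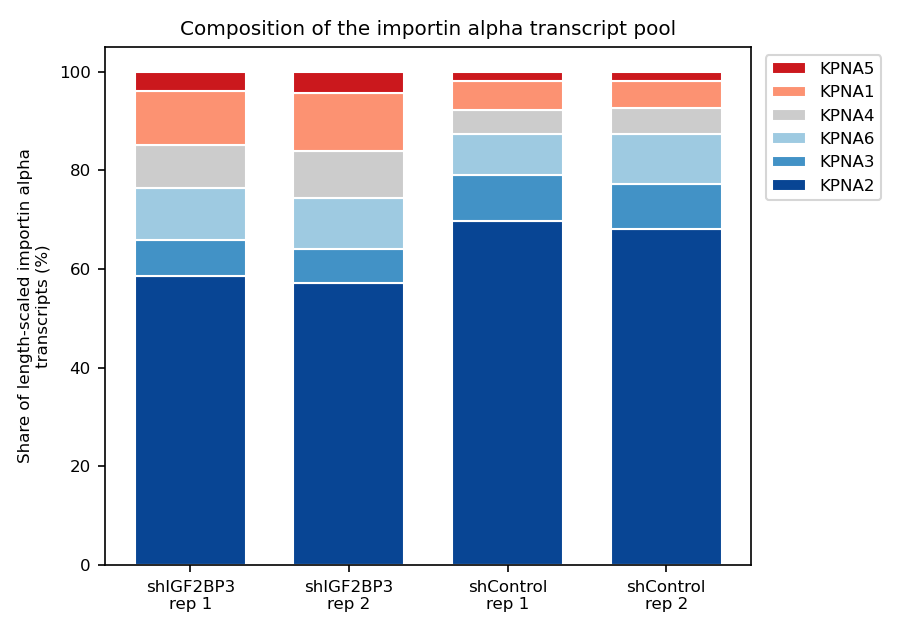
Stacked bars of the share of the importin alpha pool in percent, from counts per kilobase of merged exons, for 6 KPNA genes in each of the 4 libraries, with the shIGF2BP3 libraries left of the shControl libraries. KPNA2 held 57.9% on average in shIGF2BP3 cells and 69.0% in shControl cells, and KPNA1, KPNA4 and KPNA5 held more in both shIGF2BP3 libraries.

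Among the 11 import receptors of the importin beta family, 8 fell, none rose and 3 did not pass the test, with a median log2 fold change of -0.22. IPO5 (ENSG00000065150, chr13:97953658-98024297, plus strand), an importer of ribosomal proteins and histones, had 98.5 and 105 CPM in shIGF2BP3 cells, against 358 and 335 CPM in shControl cells. It was 3.40-fold lower in shIGF2BP3 cells, the largest fall of the 50 genes as counted in these rows (log2 -1.77, SE 0.0707, adjusted p = 1.51e-12). Its pseudogene row IPO5P1 went the other way, with 34.8 and 39.0 CPM in shIGF2BP3 cells, against 17.8 and 15.7 CPM in shControl cells (log2 1.15, SE 0.122, adjusted p = 3.61e-07). Reads of such copies could be assigned to either row, so both values are uncertain. Summed, the pair had 133 and 144 CPM in shIGF2BP3 cells, against 376 and 351 CPM in shControl cells, a log2 difference of -1.39, which is a smaller fall than those of RANGAP1, RANBP1 and NUP210.

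KPNB1, the importin beta that partners importin alpha, had 492 and 519 CPM in shIGF2BP3 cells, against 577 and 554 CPM in shControl cells. The fall was small (log2 -0.16, SE 0.0612, adjusted p = 0.0342) and did not pass without replicate 1 of shIGF2BP3 (adjusted p = 0.25), replicate 2 of shIGF2BP3 (adjusted p = 0.0523) or replicate 1 of shControl (adjusted p = 0.148). The call was also lost with scaling by library totals alone (log2 -0.08, adjusted p = 0.248) and without the filter (adjusted p = 0.0683). IPO7, which carries ribosomal proteins and histone H1, had 568 and 618 CPM in shIGF2BP3 cells, against 632 and 615 CPM in shControl cells. The IPO7 groups overlapped, and the difference did not pass the test (log2 -0.07, SE 0.0624, adjusted p = 0.353). TNPO1, the receptor of proline-tyrosine signals such as that of hnRNP A1, had 684 and 767 CPM in shIGF2BP3 cells, against 682 and 696 CPM in shControl cells, with overlap and no call (log2 0.07, SE 0.0648, adjusted p = 0.363). Scaled by library totals alone, TNPO1 passed as higher (log2 0.16, adjusted p = 0.0491). Its paralog TNPO2 fell (log2 -0.88, SE 0.0735, adjusted p = 1.61e-08), and TNPO2 counts per TNPO1 count were 0.161 and 0.150 in shIGF2BP3 cells, against 0.288 and 0.314 in shControl cells. The other falls were IPO11 (log2 -0.76), an importer of ubiquitin-conjugating enzymes that shares 22.6% of its exon bases with genes on its strand, IPO13 (-0.65), TNPO3 (-0.37), which imports SR splicing factors, IPO9 (-0.22) and IPO8 (-0.19). Leaving out 1 library ended the calls of IPO9 and IPO8. IPO9 did not pass without replicate 1 of shIGF2BP3 (adjusted p = 0.0664) or of shControl (adjusted p = 0.0512). IPO8 did not pass without replicate 1 (adjusted p = 0.141) or 2 (adjusted p = 0.0948) of shIGF2BP3, or replicate 1 of shControl (adjusted p = 0.0922), nor without the filter (adjusted p = 0.0558). Scaling by library totals alone ended the calls of IPO9 (adjusted p = 0.0738) and IPO8 (adjusted p = 0.187) as well.

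IPO4 gave no usable value. The row had 29.4 and 15.5 CPM in shIGF2BP3 cells, against 11.3 and 23.9 CPM in shControl cells, and the replicates within each group differed by more than the group means did (log2 0.33, SE 0.65, adjusted p = 0.738). It shares 69.3% of its exon bases on the same strand with ENSG00000259522, whose row had 11.7 and 32.4 CPM in shIGF2BP3 cells, against 48.1 and 39.8 CPM in shControl cells. In the shIGF2BP3 pair and in the shControl pair, the library that was high in one row was low in the other. The 2 rows together had 41.1 and 47.8 CPM in shIGF2BP3 cells, against 59.4 and 63.7 CPM in shControl cells, a log2 difference of -0.47 with no overlap.

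**Figure D4:**
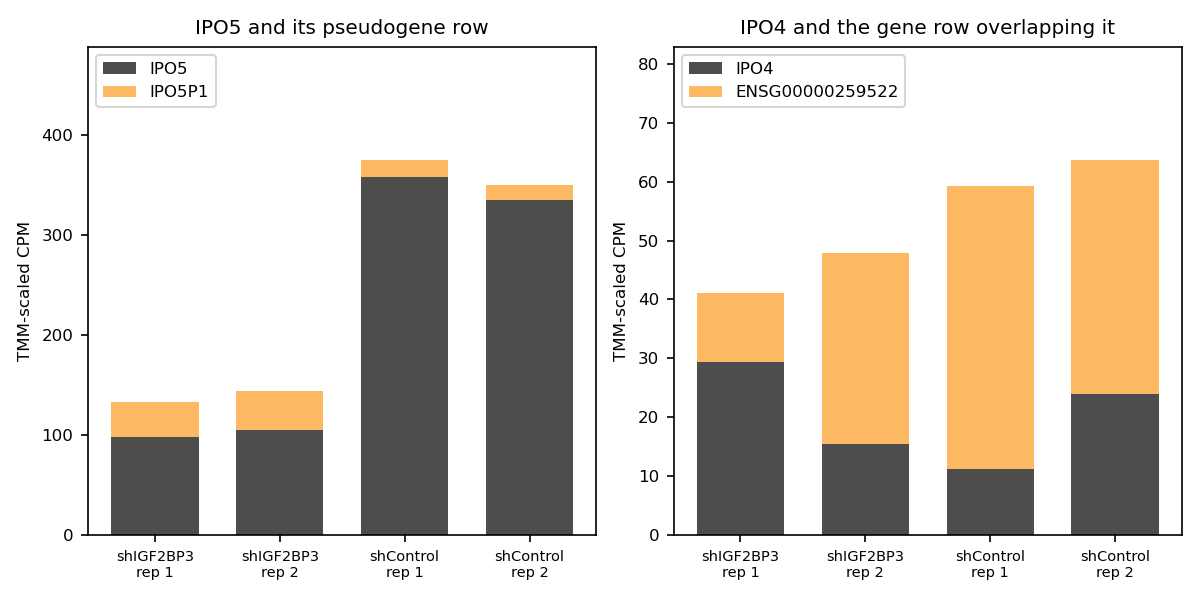
Stacked bars of TMM-scaled CPM of IPO5 with its pseudogene row IPO5P1 and of IPO4 with the gene row that overlaps it (ENSG00000259522), with 1 bar per library and shIGF2BP3 left of shControl, so that the full height is the sum of the pair. IPO4 and its overlapping gene vary in opposite directions between replicates, while their sum is lower in both shIGF2BP3 libraries.

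Of the 7 export receptors, 5 fell, 1 rose and 1 did not pass the test (median log2 -0.36). XPO1, the receptor of leucine-rich export signals, had 319 and 341 CPM in shIGF2BP3 cells, against 499 and 452 CPM in shControl cells. The groups did not overlap (log2 -0.53, SE 0.0671, adjusted p = 3.31e-06). CSE1L, which returns importin alpha to the cytoplasm, had 215 and 220.1 CPM in shIGF2BP3 cells, against 414 and 363 CPM in shControl cells, also lower in both libraries (log2 -0.83, SE 0.0709, adjusted p = 2.14e-08). XPOT (ENSG00000184575, chr12:64404350-64451127, plus strand), the exporter of tRNA, had 648 and 674 CPM in shIGF2BP3 cells, against 395 and 366 CPM in shControl cells. It was 1.74-fold higher in shIGF2BP3 cells, the largest rise of the 50 genes (log2 0.80, SE 0.0631, adjusted p = 8.31e-09). XPOT counts per XPO1 count were 2.03 and 1.98 in shIGF2BP3 cells, against 0.792 and 0.809 in shControl cells. XPO4 (log2 -0.41) and XPO7 (log2 -0.36), which carry protein cargo, and XPO5 (log2 -0.22), the exporter of precursor miRNAs, fell less than CSE1L by point estimate. XPO5 did not pass without replicate 1 (adjusted p = 0.0528) or replicate 2 (adjusted p = 0.054) of shIGF2BP3, or with scaling by library totals alone (adjusted p = 0.0793). XPO6, the exporter of actin and profilin, did not pass (log2 -0.16, SE 0.0717, adjusted p = 0.0717), but did without replicate 2 of shIGF2BP3 (log2 -0.24, adjusted p = 0.0338).

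**Figure D5:**
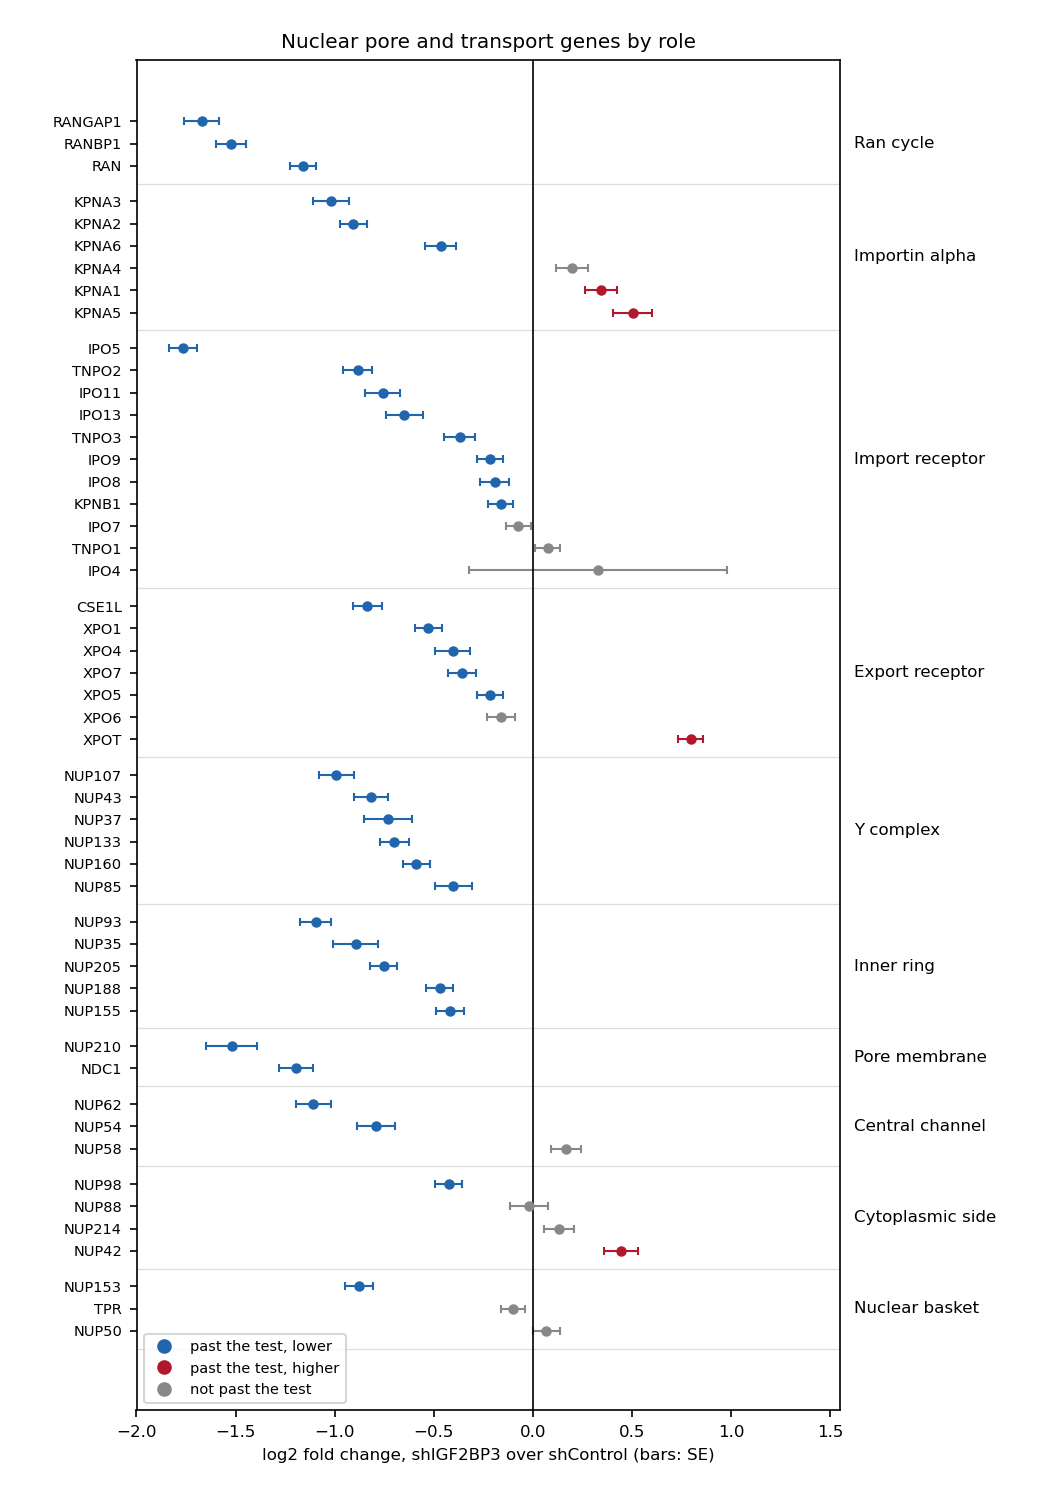
Log2 fold change of shIGF2BP3 over shControl for the 50 tested genes, grouped by role, with bars of 1 standard error and colour by call (edgeR's quasi-likelihood test, adjusted p under 0.05). The values run between -1.77 for IPO5 and 0.80 for XPOT, and the plotted Y complex, inner ring and membrane genes, which do not include SEH1L, SEC13 or POM121, all lie below 0.

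Of the 23 nucleoporins, 17 fell, 1 rose and 5 did not pass the test, with a median log2 fold change of -0.70. All 6 genes that the symbol rule takes from the Y complex, the outer scaffold, fell (median log2 -0.71). NUP107 had 62.5 and 60.9 CPM in shIGF2BP3 cells, against 133 and 113 CPM in shControl cells, with no overlap (log2 -0.99, SE 0.0882, adjusted p = 3.85e-08). The other 5 genes of the rule were NUP43 (log2 -0.82), NUP37 (-0.73), NUP133 (-0.70), NUP160 (-0.59) and NUP85 (-0.40). SEH1L and SEC13, Y complex subunits outside the rule, did not pass the test. SEH1L had 50.02 and 43.2 CPM in shIGF2BP3 cells, against 54.6 and 45.9 CPM in shControl cells, which overlapped (log2 -0.10, SE 0.106, adjusted p = 0.443). SEC13 had 46.98 and 46.9 CPM in shIGF2BP3 cells, against 41.4 and 40.9 CPM in shControl cells (log2 0.19, SE 0.0921, adjusted p = 0.0941), higher without overlap. All 5 genes of the inner ring, which joins the scaffold to the channel, also fell (median log2 -0.75). NUP93, the linker between the ring and the NUP62 complex, had 57.0 and 56.8 CPM in shIGF2BP3 cells, against 124 and 119 CPM in shControl cells (log2 -1.10, SE 0.0776, adjusted p = 1.98e-09). NUP35 had 21.2 and 19.2 CPM in shIGF2BP3 cells, against 36.1 and 38.9 CPM in shControl cells (log2 -0.89, SE 0.114, adjusted p = 3.36e-06), and for both genes the libraries of the groups lay apart. The large ring subunits NUP205 (-0.75), NUP188 (-0.47) and NUP155 (-0.42) fell by less on the log2 scale than NUP93. The summed level of the Y complex was 385 and 384 CPM in shIGF2BP3 cells, against 646 and 596 CPM in shControl cells, and that of the inner ring 494 and 518 CPM in shIGF2BP3 cells, against 813 and 792 CPM in shControl cells.

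Both membrane nucleoporins that the symbol rule takes fell. NUP210 (ENSG00000132182, chr3:13316235-13420309, minus strand), a protein of the pore membrane whose level is known to vary between cell types, had 19.7 and 21.5 CPM in shIGF2BP3 cells, against 51.3 and 66.4 CPM in shControl cells. Its shControl libraries differed from each other more than its shIGF2BP3 libraries did, but the groups lay well apart (log2 -1.52, SE 0.128, adjusted p = 6.18e-08). NDC1, which anchors the pore in the membrane, had 45.8 and 49.5 CPM in shIGF2BP3 cells, against 115 and 103 CPM in shControl cells (log2 -1.20, SE 0.0868, adjusted p = 2.75e-09). POM121, a membrane nucleoporin outside the rule with a near-identical copy in POM121C, had 92.3 and 89.7 CPM in shIGF2BP3 cells, against 100.4 and 104.6 CPM in shControl cells and did not pass the test (log2 -0.17, SE 0.0748, adjusted p = 0.0632), while POM121C fell (log2 -0.49, SE 0.0866, adjusted p = 0.000116). The 13 genes of the rule in the Y complex, inner ring and membrane had a median log2 fold change of -0.75, and all 13 fell. That count leaves out SEH1L, SEC13 and POM121, which did not pass the test. It also leaves out POM121C and AHCTF1, pore genes outside the rule that fell. Among abundant protein-coding genes 38.0% fell. This grouping of roles was made after the values were seen.

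The channel, the cytoplasmic side and the basket were mixed, with 4 of 10 genes lower, 1 higher and 5 not past the test (median log2 -0.06). That count leaves out GLE1 (log2 -1.13, SE 0.121) and RAE1 (log2 -0.74, SE 0.113), pore genes outside the rule that fell. It also leaves out RANBP2 (log2 0.08, SE 0.0653), which did not pass the test. NUP62, a repeat-bearing nucleoporin of the channel, had 40.2 and 36.7 CPM in shIGF2BP3 cells, against 81.7 and 84.1 CPM in shControl cells (log2 -1.11, SE 0.0882, adjusted p = 9.05e-09), and 11.96% of its exon bases are shared with genes on its strand. Its partner NUP54 fell as well (log2 -0.79). NUP58, the other subunit of that complex, had 99.4 and 105 CPM in shIGF2BP3 cells, against 95.0 and 87.4 CPM in shControl cells, and the difference did not pass the test (log2 0.17, SE 0.0778, adjusted p = 0.0834). NUP62 counts per NUP58 count were 0.404 and 0.349 in shIGF2BP3 cells, against 0.860 and 0.963 in shControl cells, with no overlap.

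On the cytoplasmic side, NUP98, a repeat-bearing nucleoporin found on both faces, fell (log2 -0.42). NUP42 (ENSG00000136243, chr7:23181827-23201011, plus strand), which helps to release exported mRNA, had 68.3 and 64.1 CPM in shIGF2BP3 cells, against 48.4 and 48.9 CPM in shControl cells and was the only nucleoporin of the 23 to rise (log2 0.45, SE 0.0865, adjusted p = 0.000308). Its exons share 12.96% of their bases with a gene on the opposite strand. NUP214 (log2 0.13, adjusted p = 0.156) and NUP88 (log2 -0.02, adjusted p = 0.889), which bind each other, did not pass the test. In the nuclear basket, NUP153 had 104 and 109 CPM in shIGF2BP3 cells, against 204 and 188 CPM in shControl cells, a fall with no overlap (log2 -0.88, SE 0.0722, adjusted p = 1.39e-08). Its binding partner NUP50 (log2 0.07, SE 0.0677, adjusted p = 0.427) and TPR, the filament protein of the basket (log2 -0.10, SE 0.0625, adjusted p = 0.196), did not pass. NUP153 counts per NUP50 count were 0.665 and 0.677 in shIGF2BP3 cells, against 1.33 and 1.26 in shControl cells. NUP58 and NUP214 passed as higher when libraries were scaled by their totals alone (log2 0.25 and 0.21).

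Per kilobase of exon, the order of the levels differed between the groups. In shIGF2BP3 cells XPOT stood first of the 50 with 89.8 CPM per kilobase, ahead of IPO7 (81.8), KPNA2 (69.2), KPNB1 (65.8), TNPO1 (60.6), RAN (60.4) and CSE1L (57.3). In shControl cells RAN stood first with 135 CPM per kilobase, followed by KPNA2 (129.8), CSE1L (102), IPO7 (86.1), KPNB1 (73.7), TNPO1 (57.5) and XPOT (51.6). TNPO1 and RAN in shIGF2BP3 cells differed by less than their spread over libraries, as did RAN and KPNA2 in shControl cells. The same 7 genes were the most abundant in both groups, and XPOT was the only one of them to rise. RANGAP1 stood at 12.5 in shIGF2BP3 cells and 39.9 in shControl cells, rank 29 of the 50 in shIGF2BP3 cells and rank 11 in shControl cells. IPO5 stood at 10.5 in shIGF2BP3 cells and 35.8 in shControl cells, rank 32 in shIGF2BP3 cells and rank 12 in shControl cells. Merged exons count every annotated exon, so a gene expressed as a short transcript has its level per kilobase understated.

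Other genes of the pore and of its surroundings were examined by lists. The counts of each list are read beside 25.6% of all genes tested and 38.0% of abundant protein-coding genes that fell. The shares that fell were 65.0% for pore and Ran genes, 52.0% for mRNA export and 63.6% for the lamina and envelope. Of 20 tested pore and Ran genes outside the symbol rule, 13 fell, 2 rose and 5 did not pass the test (median log2 -0.59). Among those with the smallest p were AHCTF1, which seeds pores on chromatin (-1.20), NUTF2, the importer of Ran (-1.36), and AAAS, a membrane-associated nucleoporin (-1.15). AHCTF1 averaged 65.0 ± 6.65 CPM in shIGF2BP3 cells and 149 ± 8.44 CPM in shControl cells (SD, n = 2 each). Of 25 mRNA export genes, 13 fell and 12 did not pass (median log2 -0.39), led by the adaptor ALYREF, with 48.9 ± 2.41 CPM in shIGF2BP3 cells and 127 ± 7.33 CPM in shControl cells (log2 -1.38), the cap-binding subunit NCBP2 (-0.81), the exon junction helicase EIF4A3 (-0.80) and PCID2 (-0.66). Of 22 genes of the lamina and nuclear envelope, 14 fell, 4 rose and 4 did not pass (median log2 -0.51). The B-type lamins had the smallest p. LMNB2 averaged 38.3 ± 0.946 CPM in shIGF2BP3 cells and 254 ± 27.9 CPM in shControl cells (log2 -2.73), and LMNB1 averaged 59.6 ± 2.05 CPM in shIGF2BP3 cells and 275.8 ± 16.0 CPM in shControl cells (log2 -2.21). LBR, the lamin B receptor (-1.57), and SUN1, which links the lamina to the cytoskeleton (-1.35), followed. All of these named genes passed the test, with adjusted p of at most 2.41e-06 by edgeR's quasi-likelihood test. RANBP2, the large cytoplasmic filament nucleoporin that anchors SUMO-modified RANGAP1, was named for that role after its values were seen. It had 301 and 327 CPM in shIGF2BP3 cells, against 293 and 303 CPM in shControl cells, which overlapped and did not pass the test (log2 0.08, SE 0.0653, adjusted p = 0.352).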

How the data were processed

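Whole-number counts per Ensembl gene, 1 column per library, are what the authors deposited. The submitters' processing notes name HISAT2 2.2.0, StringTie and hg38, while the sources used here give no annotation release, strand setting or counting rule. Counts of genes that overlap or have near-identical copies are therefore uncertain. Symbols came from a gene name table for 56105 rows and from GENCODE release 29 on GRCh38 for 486, and that annotation also gave biotype, exon length and coordinates. The 7661 rows without a symbol held between 1.6% and 1.8% of the counts and stayed in the fit.

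In R 4.3.3, edgeR 4.0.16 was run on the deposited counts, with filterByExpr (smallest count 10) and TMM scaling. Its robust quasi-likelihood test compared shIGF2BP3 with shControl over 2 libraries each, with 2 residual degrees of freedom to which the prior added a median of 15.06. The standard error was the fold change divided by the square root of F. Chi-square divided by its degrees of freedom was 7.01 between the shIGF2BP3 libraries and 8.27 between the shControl libraries, above sampling noise, and 142.6 to 151.5 between libraries of different groups. Counts were also simulated for shIGF2BP3 over shControl (19272 genes), with the same dispersion for all genes. On them the fit found 19 of 67 genes at 1.5-fold, 60 of 67 at 2-fold and 66 of 66 at 4-fold. It made 8 false calls. The floor of 3 counts covers counting error only.

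Values per library are given for the Ran cycle, KPNA, KPNB, CSE1L and XPO1 rows, the 12 lowest and 8 highest fold changes past the test without overlap and averaging a log2 CPM of at least 1 (only 4 rose), and the 5 most abundant genes. Up to 4 genes of each other list are named by smallest p, and 1 gene that this takes is not reported here. NUP58, NUP153, IPO4, RCC1, RANBP2, GLE1, RAE1, SEH1L, SEC13, POM121 and POM121C were added after their values were seen. So were the ratios of paralogs and partners. The members and the lists were chosen with earlier results of these data known. Alternatives were RLE and library-size scaling, no filter, DESeq2 1.42.0, limma voom 3.58.1, an older edgeR fit (added after seeing the data), a replicate block, summed rows of 1 symbol, shares without length scaling and leaving out each library. Python 3.11.15 was used for summaries.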

Additional observations from a re-analysis of the deposited data

How the results depend on the processing

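Of the 50 genes, 36 fell. The count was 36 under RLE scaling, DESeq2, limma voom, the older edgeR fit and summed rows, 34 without the filter, 32 under library-size scaling and between 32 and 36 when 1 library was left out. The 4 rises stayed called under every alternative, and library-size scaling called 8 higher, as it moved the median of all genes to 0.09 on the log2 scale. Leaving out 1 library gave 4 to 5 higher. Of the 36 calls of a fall, 32 held under every alternative, with IPO8, IPO9, KPNB1 and XPO5 as the exceptions. IPO7 turned to a log2 fold change of 0.0081 under library-size scaling and TNPO1 to -0.0088 without replicate 2 of shIGF2BP3 (its other values without 1 library reached 0.1586), neither past the test, and the KPNA6 share difference turned to -0.495 percentage points without length scaling.

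Over all genes tested, 10178 were called, 5120 higher and 5058 lower. Library-size scaling gave 5739 higher and 4405 lower. The other counts were 10151 with RLE, 8756 without the filter, 8869 with DESeq2, 10025 with limma voom, 9893 with the older edgeR fit, 10180 with summed rows and 8800 to 9443 without 1 library. The labels state no pairing by replicate number. Deviations from the group means correlated at 0.021 between the replicate 1 libraries over all genes tested. With 2 libraries per group, and low-count genes weighing as much as others, this value cannot decide whether replicates were paired. With a replicate block, 10509 genes were called, and of the 50 genes 34 were lower and 5 higher, IPO4 among the 5 (adjusted p = 0.0419), while KPNB1 (adjusted p = 0.0501) and IPO8 (adjusted p = 0.0523) lost their calls.

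The pairs of libraries limit precision, so changes of 1.5-fold or less were often not detectable.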

Other observations

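NUP42, the nucleoporin that rose, lies on the same chromosome arm as the targeted gene. On GRCh38, NUP42 spans chr7:23181827-23201011 on the plus strand and IGF2BP3 spans chr7:23310209-23470467 on the minus strand, with GPNMB (chr7:23235967-23275108) and MALSU1 (chr7:23298739-23311729) as the protein-coding genes between them. GPNMB, a membrane glycoprotein of lysosomes and melanosomes, had 43.0 and 42.8 CPM in shIGF2BP3 cells, against 2.82 and 1.31 CPM in shControl cells, which did not overlap (log2 4.41, SE 0.197, adjusted p = 5.71e-12 by edgeR's quasi-likelihood test). MALSU1, a mitochondrial ribosome assembly factor whose span overlaps that of IGF2BP3 on the opposite strand, did not pass the test (log2 -0.12, SE 0.114, adjusted p = 0.392). KLHL7, on the other side of NUP42, had 42.3 and 45.9 CPM in shIGF2BP3 cells, against 53.3 and 54.5 CPM in shControl cells (log2 -0.29, SE 0.0914, adjusted p = 0.0127). From NUP42 to IGF2BP3, NUP42 and GPNMB were higher, MALSU1 did not pass the test and the targeted gene IGF2BP3 was lower. KLHL7, which was lower, lies outside that interval. A part of position in these differences was not tested.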
